A study of Mus musculus with 6 samples.

Results

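Granins are acidic proteins of the regulated secretory pathway, the route by which endocrine cells and neurons store peptides in dense-core vesicles and release them on a calcium signal. In the trans-Golgi network granins aggregate with prohormones and help to load the vesicles. Prohormone convertases then cut the precursors at pairs of basic residues, carboxypeptidase E trims the exposed basic residues, and small partner proteins hold the convertases in check until the vesicle has matured. The 10 genes described here belong to this system and were taken by symbol from a table of 52636 genes. They comprise the granins Chga, Chgb, Scg2, Scg3 and Vgf, the convertases Pcsk1 and Pcsk2, the convertase partners Scg5 and Pcsk1n, and the carboxypeptidase Cpe.

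The table came from bulk RNA-seq of the vestibular epithelium of male 129S1/SvImJ mice, adults a few months old. The 3 Control animals drank plain water, and the 3 IDPN animals drank water with 30 mM 3,3'-iminodipropionitrile, a nitrile that damages inner ear hair cells (HCs), for 8 weeks. Each library held the 2 utricles and 6 cristae of 1 animal, so it mixed type I and type II HCs (HCI and HCII), supporting cells, nerve endings and whatever tissue stayed attached. Libraries held 40474800 to 43566300 estimated counts, and size factors, the divisors that put libraries on a common scale, ran from 0.825 to 1.21. IDPN 2 stood apart in the keratin genes Krt8 and Krt18, with normalised counts of 155447 and 109829 where the other 5 libraries had at most 9308 and 14228. The labels gave a single batch, but the title codes of the Control animals shared a stem that no IDPN animal had, and an effect that follows the stem and an effect of the exposure cannot be told apart. Values of single libraries are given in the order of animals 1, 2 and 3 of each group.

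Of the 10 genes, 3 were downregulated after IDPN under the main setting, as were 3.42% of all genes tested. Only Scg5 stayed so under every alternative setting. Scg5, the binding partner of the PC2 convertase, fell to 37.9% of the Control level, Chgb, a core granin of the vesicle matrix, to 53.2%, and Scg3, which tethers granins to the vesicle membrane, to 56.6%. Cpe, the most abundant of the genes, had 97.5% of its Control level, Pcsk1 had 134% and Chga had 74.6%. The scarce Pcsk1n and Scg2 had fitted values of 44.9% and 11.6%. None of these values passed the test. The transcripts of Pcsk2 and Vgf were close to absent from both groups.

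A gene was called when the Benjamini-Hochberg adjusted p of the DESeq2 Wald test (Padj) was under 0.05 and the fold change exceeded 1.5. Of the 10 genes, 8 had enough counts to be tested, 3 were called lower and 0 higher. At an unadjusted p under 0.05, 4 were lower (the 3 called genes and Scg2) and 0 higher, and the edgeR quasi-likelihood test called 2 lower and 0 higher. Over all 17650 genes tested, 3.42% were called lower and 2.32% higher. With edgeR the share called lower was 2.19%. The median log2-Fold_Change of the 8 genes was −0.87, against 0.015 for all genes. In 6 of the 8 every IDPN library lay below every Control library, a pattern that 11.4% of all genes showed, and in 0 of the 8 every IDPN library lay above, against 11.1% of all genes.

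**Figure D1:**
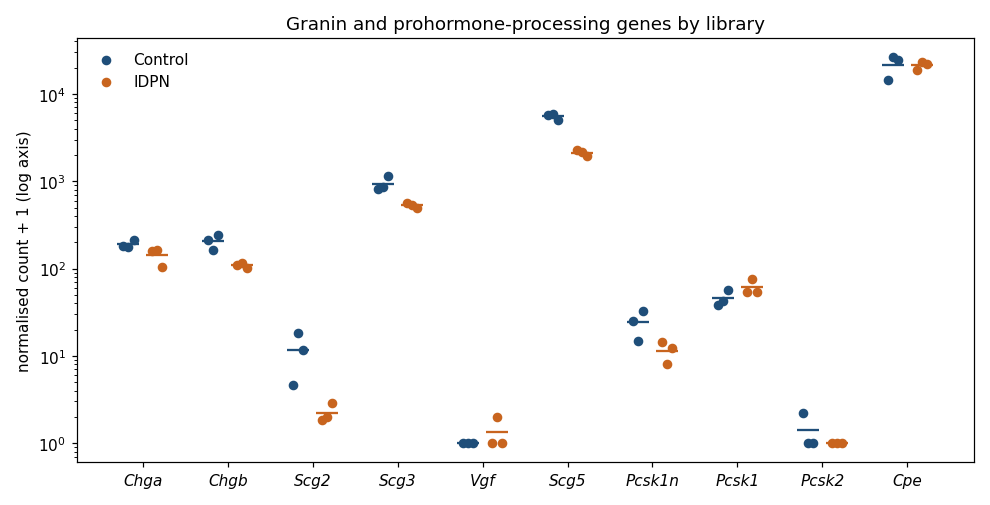
Normalised counts (plus 1, log axis) of the 10 genes in the 3 Control (blue) and 3 IDPN (orange) libraries, with horizontal bars at the group means. The IDPN points of Scg5, Scg3 and Chgb sit below all their Control points, those of Cpe and Pcsk1 overlap, and Vgf and Pcsk2 have 1 count each.

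Several of these genes carry, near their start, the letters of the cyclic AMP response element (CRE), a class of short sequences bound by the CREB family of transcription factors and long known from neuroendocrine promoters. RefSeq start-site windows (GRCm38.p6, 250 bases before to 50 bases after the start) were found for 8 of the 10 genes. The stretches before the start that hold the CRE letters are shown because they stood before some of the called and some of the uncalled genes. Each runs 5′ to 3′ on the strand of the gene, with the CRE letters in capitals, and is named with its position. A second match of the 6-base string for Scg5, on the opposite strand 40 bases after the start, is not printed.
Chgb, 72 bases before the start, chr2:132781559-132781588, plus strand: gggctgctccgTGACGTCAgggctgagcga
Scg2, 68 bases before the start, chr1:79440076-79440105, minus strand: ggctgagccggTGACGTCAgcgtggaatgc
Pcsk1, 78 bases before the start, chr13:75089768-75089797, plus strand: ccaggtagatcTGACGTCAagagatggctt
Pcsk1, 50 bases before the start, chr13:75089795-75089824, plus strand: ctttcgtcgattTGACGTgtaaacactcat
Chga, 44 bases before the start, chr12:102554885-102554914, plus strand: ggggcggtcctaTGACGTaatttcctgggt
Scg5, 175 bases before the start, chr2:113829249-113829278, minus strand: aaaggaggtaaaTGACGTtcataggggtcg

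The palindrome TGACGTCA was in 3 of the 8 windows and in 1.79% of all 32851 windows of that length. The string of its first 6 bases, TGACGT, which every palindrome contains, was in 5 of the 8 windows and in 7.51% of all windows, counting both strands. The windows of Scg3, Pcsk1n and Pcsk2 held neither string. GENCODE M21 places the Chgb and Scg2 stretches within an annotated exon of their own gene, since its transcripts begin further upstream than those of RefSeq. These letters stood before Chgb and Scg5, which were called, and before Chga, Pcsk1 and Scg2, which were not. A gene that was not called need not be unchanged, and a link of the letters to the differences was not tested.

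**Figure D2:**
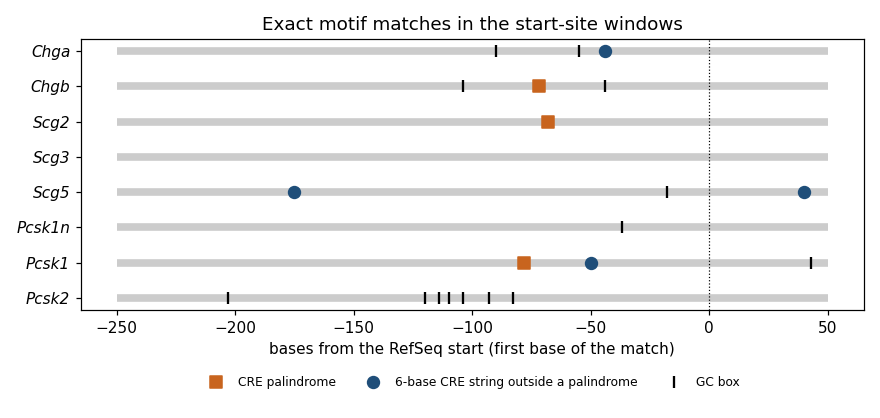
Positions of exact matches in the start-site windows of 8 genes, in bases from the RefSeq start. Orange squares mark the CRE palindrome, blue circles the 6-base CRE string outside it, and black ticks the GC box. Palindromes stand 68 to 78 bases before the start of Scg2, Chgb and Pcsk1.

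The GC box GGGCGG, bound by SP-family factors, was in 6 of the 8 windows and in 35.7% of all windows. In all, 13 letter strings were searched on both strands, some of which overlap. The CRE core TGACG was in 7 of the 8 windows (20.8% of all windows), and the short string AATC, the core of the GFI1 site, in 7 (73.1%). The E-box CACCTG was in 4 windows (20.2% of all) and the E-box CAGCTG in 3 (16.3%). Single windows held TATAAA (13.6% of all), the RE1 left part TTCAGCACC (0.371%) together with the short string GGACAG of its right part (22.2%), the AP-1 site TGACTCA (5.20%) and GTTGCC of the RFX site (12.5%). The POU4 string ATAATTAAT was in 0 of the 8 windows and in 0.274% of all. A match is a match of letters, and no binding was measured.

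Levels of different genes were compared as normalised counts per kilobase of exon. In the Control group the order began with Cpe at 8333 ± 2480 (SD, n = 3) and Scg5 at 3556 ± 300 (SD, n = 3), and by their mean over all 6 libraries these genes ranked at percentiles 98.8 and 96.3 of the tested genes. Scg3 followed at 343 ± 65.5 (SD, n = 3), then Chgb at 74.3 ± 14.6 and Chga at 68.6 ± 7.73 (SD, n = 3 each). Pcsk1n at 10.7 ± 4.16, Pcsk1 at 7.99 ± 1.64 and Scg2 at 4.19 ± 2.72 (SD, n = 3 each) came last. The ranges of the Control libraries did not overlap between Cpe, Scg5, Scg3 and the Chgb and Chga pair, whereas Chgb and Chga overlapped, as did Pcsk1n with Pcsk1 and Pcsk1 with Scg2. After IDPN, per kilobase, Scg5 stood at 1348 ± 114, Scg3 at 194 ± 12.9 and Chgb at 39.6 ± 2.89 (SD, n = 3 each). Cpe stood at 8122 ± 867 and Pcsk1 at 10.8 ± 2.29 (SD, n = 3 each), and Pcsk1 then lay above Pcsk1n (4.78 ± 1.44) in every library. The ranges of Chgb and Chga (51.2 ± 12.2, SD, n = 3) still overlapped.

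Among the granins, Chgb encodes chromogranin B, an abundant soluble protein of the vesicle core (chr2:132781278-132795079, plus strand). Its normalised counts were 211, 160 and 239 for Control against 110, 115 and 99.9 for IDPN. Every IDPN library was below every Control library, and the Control libraries spread more widely than the IDPN libraries. Its log2-Fold_Change was −0.91 (SE 0.270, Padj 0.0172, DESeq2). With edgeR the adjusted p was 0.0728, and in DESeq2 the call was lost without Control 1 (Padj 0.100), Control 3 (0.0824), IDPN 1 (0.0783) or IDPN 3 (0.102). Chgb belongs to the genes that the study selected as lower in all of its experiments, partly on these libraries, so its direction here is not independent evidence.

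Scg3, at chr9:75643189-75684056 on the minus strand, encodes secretogranin III, which binds cholesterol-rich vesicle membrane and chromogranin A. Normalised counts of Scg3 were 814, 860 and 1145 for Control against 567, 532 and 496 for IDPN. Control 3 was the highest library, and the groups were apart without it as well. The log2-Fold_Change was −0.82 (SE 0.194, Padj 0.00108, DESeq2), with an edgeR adjusted p of 0.0277. Leaving out 1 library at a time gave −0.92 to −0.65, with the call kept each time.

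Chga encodes chromogranin A, the founding granin and precursor of several bioactive fragments (chr12:102554969-102565028, plus strand). Its normalised counts were 179, 174 and 214 for Control against 157, 164 and 103 for IDPN. The groups did not overlap, but IDPN 1 and IDPN 2 lay close to Control 1 and Control 2. The log2-Fold_Change was −0.42 (95% interval −0.96 to 0.12, Padj 0.470, DESeq2), an interval that holds both no change and a fall as deep as that of Chgb.

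Scg2, precursor of the peptide secretoneurin (chr1:79434669-79440120, minus strand), was scarce. Its raw counts were 3, 15 and 12 for Control against 1, 1 and 2 for IDPN. Summed over the group, 4 counts in IDPN stood against 30 in Control, a ratio of 11.5% after scaling, with an exact interval of 2.93% to 32.5% that covers counting error only. The DESeq2 log2-Fold_Change was −3.10 (SE 1.29, Padj 0.148), so the gene was not called, and edgeR left it out for low counts. Vgf, the remaining granin, had 1 count, in IDPN 2. The limit that a count of 0 allows, 3 counts, was 0.0689 to 0.0741 CPM in these libraries, and a difference in Vgf was not detectable at this depth.

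Scg5 encodes 7B2, the chaperone that escorts the PC2 convertase precursor through the Golgi and blocks its activity (chr2:113776362-113829121, minus strand). The normalised counts of Scg5 were 5796, 5902 and 5039 for Control against 2282, 2140 and 1925 for IDPN. The lowest Control library had over 2 times the count of the highest IDPN library. The log2-Fold_Change was −1.40 (SE 0.154, Padj 7.66e-17, DESeq2), with an edgeR adjusted p of 0.00114. Scg5 was called under each of the 13 alternative settings, and leaving out 1 library at a time moved the log2-Fold_Change between −1.47 and −1.34. Pcsk2, which encodes the PC2 convertase that Scg5 serves, had 1 count, in Control 1. Its exons overlap the antisense genes Pcsk2os1 and Pcsk2os2 over 359 bases, and the library kit did not mark strand.

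Pcsk1 encodes the PC1/3 convertase (chr13:75089826-75134861, plus strand). Normalised counts were 37.6, 41.6 and 55.2 for Control against 53.0, 75.3 and 53.2 for IDPN. Control 3 lay within the IDPN range. The log2-Fold_Change was 0.43 (95% interval −0.37 to 1.22, Padj 0.678, DESeq2), the only positive value among the 8 tested genes in this fit. Pcsk1n, at chrX:7919822-7924410 on the plus strand, encodes proSAAS, a granin-like inhibitor of PC1/3. Its normalised counts were 24.3, 13.9 and 32.0 for Control against 13.2, 7.03 and 11.2 for IDPN. IDPN 1 lay just under Control 2, and the log2-Fold_Change was −1.16 (95% interval −2.51 to 0.19, Padj 0.409, DESeq2). Pcsk1n shares 135 exon bases with the antisense gene Eras, so the source of some of these reads is uncertain.

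Cpe encodes carboxypeptidase E, which removes basic residues after convertase cleavage and has also been described as a sorting receptor for prohormones (chr8:64592542-64693054, minus strand). Its normalised counts were 14354, 26399 and 24471 for Control against 18687, 23093 and 21788 for IDPN. Control 1 was the lowest of the 6 libraries, and the IDPN libraries lay inside the Control range. The log2-Fold_Change was −0.04 (95% interval −0.46 to 0.39, Padj 0.964, DESeq2), and with these size factors the interval leaves out a 1.5-fold change in either direction.

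**Figure D3:**
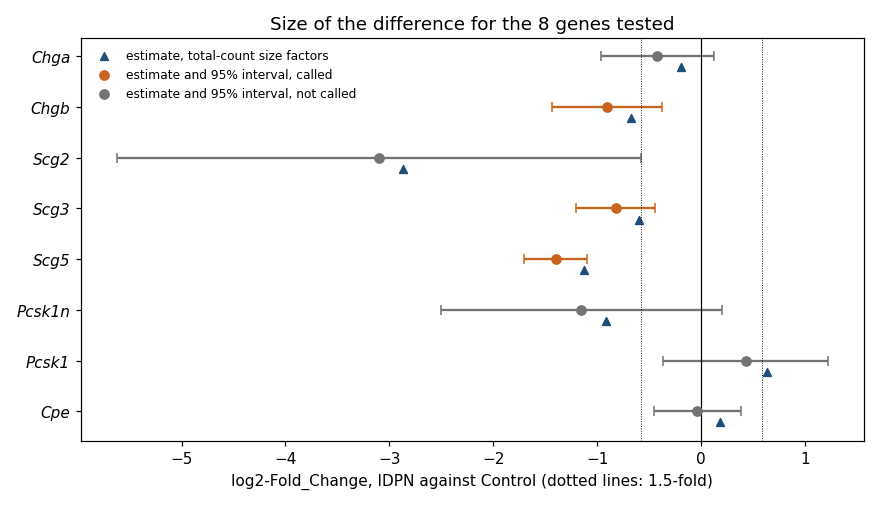
Fitted log2-Fold_Change (IDPN against Control) of the 8 tested genes with 95% intervals (circles) and the estimate under total-count size factors (triangles), dotted lines at 1.5-fold. The called genes Scg5, Scg3 and Chgb, in orange, have intervals below 0, as does the uncalled Scg2, and total-count size factors move every estimate to the right.

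Scaling changed the calls. With size factors proportional to total counts, the median of all genes rose by 0.25 on the log2 scale, 1.28% of genes were called lower, and Scg5 alone of the 8 genes was called (log2-Fold_Change −1.13). Scg3 then had −0.60 (Padj 0.211) and Chgb −0.68 (Padj 0.236). Relative to the median of all genes the values hardly moved, from −0.84 to −0.86 for Scg3, from −0.93 to −0.95 for Chgb and from −1.41 to −1.40 for Scg5. Other size factors shift all genes by nearly the same amount, so this was fixed in advance and does not bear on the lost calls. Cpe changed sign, from −0.04 to 0.18, and relative to the median of all genes it went from −0.052 to −0.085.

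Ratios between genes within a library need no scaling. The log2 ratio of Scg5 to Cpe, in normalised counts, was −1.31, −2.16 and −2.28 for Control against −3.03, −3.43 and −3.50 for IDPN. The log2 ratio of Scg5 to Scg3 was 2.83, 2.78 and 2.14 for Control against 2.01, 2.01 and 1.96 for IDPN. In both the IDPN libraries lay below all Control libraries. The ratio of Chgb to Chga overlapped between the groups (mean log2 ratio 0.093 in Control and −0.35 in IDPN), as did that of Scg3 to Chga (2.302 and 1.942). Scg5 to Pcsk1 had means of 6.98 and 5.15 without overlap. Over the 5 ratios, which were chosen with the results known, the two-sided exact permutation p was 0.10 for the 3 ratios without overlap, the smallest that 3 against 3 libraries allow (adjusted p 0.167), and 0.20 for the others.

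**Figure D4:**
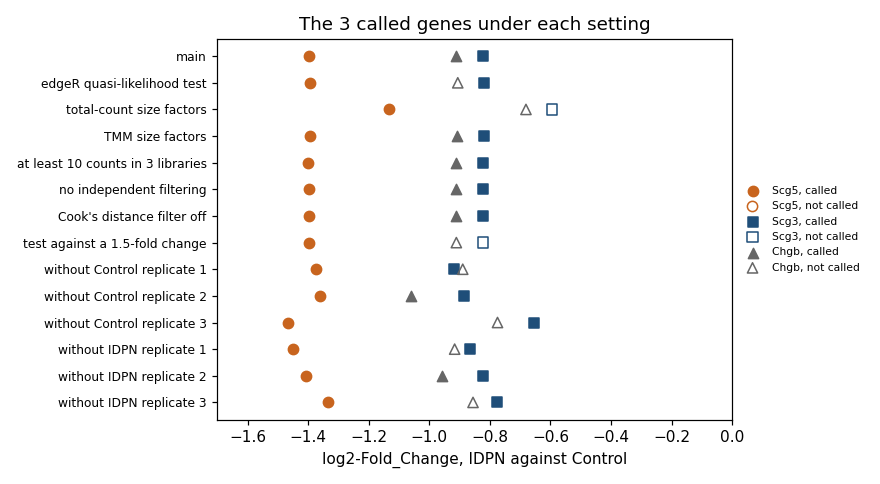
Log2-Fold_Change of Scg5 (circles), Scg3 (squares) and Chgb (triangles) under the main setting and each alternative, filled where the gene was called and open where it was not. Scg5 is filled throughout, Scg3 is open under total-count size factors and the test against a 1.5-fold change, and Chgb is open under 7 alternatives.

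Lists of other secretory genes were read from the same fit, beside the 3.42% and 2.32% of all genes called lower and higher. Of 15 other enzymes of prohormone processing, 1 was called, lower, and the median log2-Fold_Change was −0.055. That enzyme was Pam, which makes the C-terminal amide of many peptides. Normalised counts of Pam were 8985, 14741 and 12295 for Control against 7765, 6806 and 6099 for IDPN, without overlap (log2-Fold_Change −0.80, SE 0.196, Padj 0.00182, DESeq2), but edgeR gave an adjusted p of 0.0737. Ctsl, the lysosomal protease cathepsin L and the most abundant gene of this list, had a log2-Fold_Change of −0.17 (Padj 0.716, DESeq2).

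Among 27 genes of dense-core vesicle biogenesis and membrane, 25 were tested, 2 were called lower and the median was −0.11. Tbc1d5, a Rab GTPase-activating protein, had normalised counts of 498, 587 and 543 for Control against 395, 295 and 324 for IDPN (log2-Fold_Change −0.68, Padj 0.0166, DESeq2). Ptprn2, which encodes phogrin, a protein of the vesicle membrane, had 51 raw counts in Control and 5 in IDPN, a ratio of 8.42% after scaling (exact interval 2.62% to 20.97%, counting error only). Its DESeq2 log2-Fold_Change was −3.62 (SE 1.09, Padj 0.0195). The most abundant genes of the list, the proton pump subunits Atp6ap1 and Atp6ap2, had log2-Fold_Change values of −0.35 and −0.32 and were not called.

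For vesicle exocytosis, 28 of 31 genes were tested, 3 were called lower and 1 higher, with a median of 0.0069. Snap25, a SNARE of the plasma membrane, had normalised counts of 685, 598 and 722 for Control against 411, 327 and 295 for IDPN (log2-Fold_Change −0.96, Padj 0.000168, DESeq2). The calcium sensor Syt1 (−0.79, Padj 0.0128, DESeq2) and the vesicle-priming gene Cadps2 (−0.93, Padj 0.0265, DESeq2) were the others called lower. Unc13d, another priming factor, rose from 23.0, 18.5 and 10.7 in Control to 67.9, 51.2 and 35.5 in IDPN (log2-Fold_Change 1.58, Padj 0.0450, DESeq2). That call was lost in each fit without 1 library. Of the genes called in these 3 lists, edgeR called Snap25 alone (adjusted p 0.0174). The most abundant genes, Vamp2 (−0.18) and Rab3a (0.035), were not called.

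Of 58 peptide precursors, the cargo of the pathway, 21 had enough counts to be tested and 20 had 0 counts in all 6 libraries, Vip, Sst and Trh among them. Among those tested, 3 were called lower and 3 higher, and the median was 0.028. Bdnf, a neurotrophin that is also an HCI marker, had normalised counts of 3486, 3313 and 3299 for Control against 1125, 808 and 786 for IDPN, a log2-Fold_Change of −1.89 (SE 0.181). Like Chgb, Bdnf is among the genes that the study selected as lower in all of its experiments. Cartpt fell from 64 to 10 raw counts per group (13.4% after scaling, exact interval 6.15% to 26.3%) and Grp, the gastrin-releasing peptide precursor, from 52 to 8 (13.2%, interval 5.42% to 28.02%), both intervals covering counting error only. Stc1, the stanniocalcin gene (log2-Fold_Change 2.36), Adm, the adrenomedullin precursor (1.63), and Edn3, which encodes endothelin 3 (1.52), rose. With edgeR 2 were called lower and 2 higher, and Cartpt (adjusted p 0.0708) and Edn3 (adjusted p 0.146) were not called. Penk, the enkephalin precursor, was the most abundant of the list and had a log2-Fold_Change of −0.31 (Padj 0.642, DESeq2), followed in abundance by Nucb1 at −0.11.

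**Figure D5:**
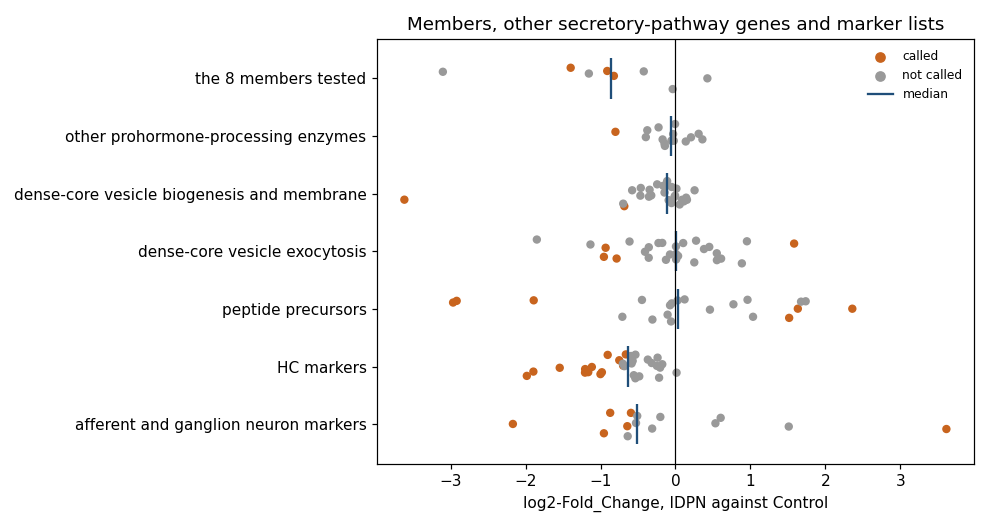
Log2-Fold_Change (IDPN against Control) of each tested gene, by list, with called genes in orange, others in grey and a blue line at the list's median. The median of the 8 tested genes, −0.87, stands beside −0.63 for the HC markers, and the medians of the 4 other lists of secretory genes lie between −0.11 and 0.028.

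Markers of the cell types in the dissection moved as well. Of 30 HC markers, 13 were called lower, with a median log2-Fold_Change of −0.63, and their summed normalised counts were 101240 to 111517 in Control and 60899 to 67321 in IDPN. The HC transcription factor Pou4f3, a defining marker, had 6831, 6387 and 5843 for Control against 3105, 3261 and 3155 for IDPN. Myo7a, whose protein the study used to mark HCs, had 643, 680 and 1074 for Control against 947, 683 and 793 for IDPN. Its log2-Fold_Change was 0.015 (Padj 0.987, DESeq2), whereas 29 of the 30 HC markers had a value below 0. HC transcripts were thus present in both groups. In this bulk tissue, fewer cells of a type and less RNA per cell cannot be told apart. The HC marker count was 11 with edgeR, 7 with total-count size factors and 4 in the test against a 1.5-fold change. Of 9 HCI markers 8 were called lower (median −1.90), and of 4 HCII markers 1 was (median −0.29). Most of the HCI markers, among them Kcnab1, Bdnf and Bmp2, belong to the genes that the study selected as lower in all of its experiments. That selection rested partly on these libraries, so their calls and the contrast with HCII are not independent evidence. Of the 30 HC markers, 3 had a lower log2-Fold_Change than Scg5, 9 than Chgb, 10 than Scg3, 22 than Chga and 29 than Cpe. The 3 below Scg5 were Ocm, Xirp2 and Ptprq, which are also among the genes so selected by the study.

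Granins are also made by neurons. Of 18 markers of afferent and ganglion neurons, 14 were tested, 5 were called lower and 1 higher, with a median of −0.52 and summed normalised counts of 8174 to 8262 in Control and 5147 to 5331 in IDPN. The 5 calls became 4 with edgeR, 1 with total-count size factors, 1 in the test against a 1.5-fold change and 3 without Control 1 or IDPN 1. Snap25 stands in both this list and that of exocytosis. Most of the summed counts came from Nefl, Nefm, Isl1, Ntrk2 and Snap25. Tubb3 and Stmn2 had Control means of 10.2 and 10.9 and were not called. Gap43, Nefh, Thy1 and Scn1a had too few counts to be tested. Scn9a, the gene called higher, had means of 1.86 in Control and 22.2 in IDPN. Ntrk3, called lower, is among the genes the study selected as lower throughout, and the study speculates that HCs express it. The efferent markers Chat and Slc18a3 were at 0 in all libraries, and of the 2 efferent markers tested (median 0.31) DESeq2 and edgeR called 0, with 1 higher at an unadjusted p under 0.05. Schwann cell markers had a median of −0.26 (1 of 10 called lower and 1 higher), with sums of 226311 to 432933 in Control and 196661 to 206617 in IDPN. Supporting cell markers had a median of −0.26 (1 of 14 called, lower), with sums of 331490 to 470283 in Control and 243151 to 539828 in IDPN. Without Krt8 and Krt18, left out after their values were seen, the sums were 318065 to 451019 in Control and 226320 to 274553 in IDPN, without overlap. Endothelium markers had −0.10 (1 of 6 called, lower), stroma markers 0.18 (1 of 8 called, lower) and dark and transitional cell markers −0.32 (2 of 9 called, higher), with sums that overlapped between the groups. DESeq2 and edgeR each called 0 of the 11 macrophage markers (median 0.50) and 0 of the 6 melanocyte markers (median 0.65), of which 4 and 3 were higher at an unadjusted p under 0.05. With total-count size factors 1 macrophage marker and 4 melanocyte markers were called higher, and 1 melanocyte marker was without Control 1, Control 3 or IDPN 2, as was 1 macrophage marker without Control 2. The summed melanocyte markers were 6366 to 14355 in Control and 14606 to 22129 in IDPN, and the summed macrophage markers 2327 to 3149 and 2778 to 4056. Without IDPN 2 the log2-Fold_Change was −1.41 for Scg5, −0.82 for Scg3 and −0.96 for Chgb, and all 3 were called. The part of these cell types in the differences of Scg5, Scg3 and Chgb was not tested.

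The genes whose profile over the 6 libraries lay nearest to each called gene, among 11769 genes with a mean normalised count of at least 100, were sought by the distance between log2 values centred on Control. Nearest to Scg5 were Serpina3n, a secreted serpin (log2-Fold_Change −1.34, distance 0.236), A930033H14Rik (−1.50, distance 0.275) and Fam172a (−1.39, distance 0.282). Osbpl3, an oxysterol-binding protein, was the nearest to both Scg3 (distance 0.157) and Chgb (distance 0.266), with normalised counts of 1518, 1443 and 1965 for Control against 955, 883 and 842 for IDPN. Megf11 and Drc1 followed for Scg3 (log2-Fold_Change −0.86 each), and Zcchc12 (−0.81) and the cadherin gene Cdh11 (−0.79) for Chgb. These distances describe likeness over 6 libraries that share the group difference, and none was tested.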

How the data were processed

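RNA-seq libraries of the SMART-seq2 type, primed with oligo-dT and without molecular identifiers, were made from 6 animals, 3 per group. Per the labels and the study's methods, the authors aligned reads with STAR 2.5.3a to GRCm38 and obtained expected counts with RSEM (given as version 2.3.0) on GENCODE release 15 of the mouse annotation. The deposited expected counts, neither normalised nor filtered, were rounded to whole numbers before testing, and RSEM splits reads shared by several genes. Counts were tested with the DESeq2 1.42.0 Wald test in R 4.3.3, as the study used DESeq2, without covariates, after scaling by median-of-ratios size factors. Adjustment ran over the 17650 genes with a Padj. Alternatives were edgeR 4.0.16, total-count and TMM size factors, a filter of 10 counts in 3 libraries, independent or Cook's filtering off, a test against a 1.5-fold change, and leaving out each library. On simulated counts with 200 of 21452 genes changed, the DESeq2 test recovered 91.5% and 13.3% of its 211 calls were false. Recovery at the fold changes and count levels of the 10 genes was not tested. Exon lengths came from GENCODE M21 on the same build and start-site windows from RefSeq.

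The genes described and the gene lists were chosen with earlier results of these data known. Named genes were the 10 genes, called genes of the 4 secretory lists whose groups did not overlap (at most 6 a list), the 2 most abundant genes of each list, and the 3 nearest profiles of each called gene. Other exceptions, such as Pou4f3, Myo7a and Chat, were chosen after their values were seen. Replicate numbers followed sample order and pair no samples. Each library was 1 animal. Intervals from counts cover counting error only.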

Additional observations from a re-analysis of the deposited data

How the results depend on the processing

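Scg5 was called lower under every alternative. With total-count size factors and in the test against a 1.5-fold change, 1 of the 8 genes stayed called lower. Chgb missed the threshold with edgeR (−0.91), total-count size factors (−0.68) and the test against a 1.5-fold change (−0.91), and gave −1.06 to −0.77 without 1 library. Scg3 missed it with total-count size factors (−0.60) and the test against a 1.5-fold change (−0.82). Cpe reversed with total-count size factors (0.18) and without Control 2 (0.12), Control 3 (0.057) or IDPN 1 (0.051), and ranged from −0.27 to 0.12 without 1 library. Over all genes, calls lower numbered 604, against 357 with edgeR, 214 with total-count size factors and 111 in the test against a 1.5-fold change; calls higher numbered 410, against 166 with edgeR, 34 in the test against a 1.5-fold change and 234 to 611 without 1 library. The cause was not tested.

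Among other processing enzymes, calls lower were 0 with edgeR, total-count size factors and the 1.5-fold test and 0 to 1 without 1 library (0 without Control 2), and the median was 0.20 with total-count size factors and −0.10 to −0.049 without 1 library. For vesicle biogenesis the same alternatives gave 0, and 0 to 2 without 1 library (0 without Control 2 or IDPN 3, and 1 without Control 1, Control 3 or IDPN 1), with medians of 0.13 and −0.20 to −0.10. For exocytosis, calls lower were 1 with edgeR, 0 with total-count size factors and the 1.5-fold test and 1 to 4 without 1 library (1 without Control 1, Control 2, IDPN 2 or IDPN 3), calls higher were 0 with edgeR, without independent filtering, in the 1.5-fold test and without any 1 library (0 to 0), and the median was 0.24 with total-count size factors and −0.13 to 0.0015 without 1 library. For peptide precursors, calls lower were 1 with total-count size factors and in the 1.5-fold test and 1 to 2 without 1 library (1 without Control 1, Control 3 or IDPN 3), calls higher were 1 in the 1.5-fold test, and the median was 0.28 with total-count size factors. No paired analysis was made, because the libraries came from separate animals that no label pairs. Scg2, Vgf, Pcsk2 and Pcsk1n were limited by few counts.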
